A study of Sus scrofa with 61 samples.

Results

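Solute carrier (SLC) genes were followed in the liver of pigs at 4 stages, from late fetal life to an age of 188 days. The set comprises each gene of the Affymetrix GeneChip Porcine Genome Array that has probe-sets with a single annotated symbol and whose symbol begins with SLC and a digit or with SLCO; SLC2A5 was left out. This rule gave 122 of the 6765 genes with 1 symbol, on 183 probe-sets, and 120 of the 122 were found in the RefSeq gene table of the pig. For the 41 genes with several probe-sets, the one with the highest mean log2 signal over all 61 arrays was taken. The rule used names and mean levels, and no difference between stages.

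All animals were LP offspring, that is German Landrace pigs whose mothers, gilts, were fed a low protein diet during gestation. Each array holds liver RNA of 1 animal, with 16 fetuses at 94 days post conception (94 dpc), 14 piglets at 1 day post natum (1 dpn), 15 weaners at 28 dpn and 16 pigs at 188 dpn. Arrays of offspring of adequately fed mothers (AP) were not analysed here, so no change below can be assigned to the diet or said to be free of it. The fetuses were taken by Caesarean section and the older pigs were born to other sows, so that the effect of stage cannot be told apart from that of the experiment where 94 dpc is compared. After the sampling at 1 dpn the piglets were nursed by sows on an adequate diet and male piglets were castrated. Pigs at 28 dpn and 188 dpn had fasted overnight, and no fast is stated for 1 dpn, so that feeding state and stage cannot be told apart between them. The study chose sib pairs that differed in weight at 94 dpc and 1 dpn only, so that this choice and stage cannot be told apart between 1 dpn and the later stages. Siblings were sampled within a stage, and piglets of a litter were spread over 1 dpn, 28 dpn and 188 dpn, so that littermates also link these stages. The labels identify neither. The p-values treat all animals as independent and may therefore be too small. The animals at 1 dpn enter 2 of the adjacent comparisons, as do those at 28 dpn.

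SLC proteins move small molecules across membranes, either down a gradient or coupled to the flow of sodium, protons or another solute. In hepatocytes, carriers of the sinusoidal membrane take up amino acids, bile acids, drugs, sugars, metals and vitamins from portal blood. Carriers of the SLC25 family exchange nucleotides, carboxylates and cofactors across the inner mitochondrial membrane, and carriers of the endoplasmic reticulum (ER) and Golgi apparatus supply these compartments with sugar phosphates, nucleotide sugars and zinc.

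The values are signal intensities as deposited, taken here to log2, so that 1 unit is a doubling. Every array had been scaled to a common trimmed mean, but the median signal of an array fell with age, with a stage median of 167 in fetuses, 150 in newborns, 118 in weaners and 102 in pigs of 188 dpn. Subtracting each array's median therefore moves the median change of all genes tested, to 0.35 at 28 dpn against 1 dpn in place of -0.07, and to 0.55 at 188 dpn against 94 dpc in place of -0.20. The 3' minus 5' signal of beta-actin, which reflects how intact and fully labelled the RNA was, averaged 2.27, 1.78, 3.94 and 4.03 log2 units at the 4 stages in order of age, and that of GAPDH 1.05, 0.39, 0.79 and 0.64. The part of these shifts in any result was not tested. The 6 hepatocyte markers (ALB, APOA1, TTR, SERPINA1, TF and FGB) lay above the array median on every array, with summed signals between 217663 and 513040. In RNA of whole tissue, fewer cells of a type and less RNA per cell cannot be told apart.

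Most SLC genes were measurable. Of the 122 genes, 49 were above the array median on all 61 arrays and 13 on none. To be tested in a comparison a gene had to exceed the array median in no fewer than 50% of the animals of 1 stage or the other, with a standard deviation (SD) over 0.25, and 91 genes were tested at least once. It was called when both the P of limma, a linear model with moderated variances, and the q after Storey and Tibshirani over all probe-sets were at or below 0.05. The 31 genes that were never tested included SLC1A3, SLC1A6, SLC36A2, SLC6A14, SLC6A4 and SLC7A4 of the amino acid class, the organic ion carriers SLC22A2, SLC22A6, SLC22A8, SLCO1A2 and SLCO3A1, and the mitochondrial carriers SLC25A14, SLC25A36, SLC25A46 and SLC25A51. The amino acid class also holds relatives with other substrates, namely SLC6A4 for serotonin and SLC6A8 for creatine. The others were the sugar carriers SLC2A12 and SLC37A1, the zinc carrier SLC39A2, SLC16A3 and SLC27A1 for monocarboxylates and fatty acids, SLC26A3, SLC34A2, SLC4A4, SLC8A1, SLC9A3 and SLC9A4 for ions and phosphate, the nucleoside carriers SLC28A1 and SLC28A3, and SLC23A2, SLC44A4 and SLC5A5 of the vitamin, choline and cofactor class. Of the 91 tested genes, 89 were called in at least 1 comparison. The other 2 were the glutamine carrier SLC1A5 and the adaptor SLC9A3R2. Genes that passed the filter through a single stage were bound to differ between stages, so these totals are an account of the members and no measure of how common change was among them.

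Between the fetus and the newborn, more SLC genes rose than fell, under all 3 scalings tried. At 1 dpn against 94 dpc, 34 of 79 tested SLC genes were higher and 18 lower, whereas 33.9% of all 4760 genes tested were higher and 35.4% lower, or 69.3% in either direction. At 28 dpn against 1 dpn, 31 of 82 were higher and 39 lower, with 33.2% and 39.1% of all genes, together 72.3%. At 188 dpn against 28 dpn, 21 of 75 were higher and 22 lower, with 21.7% and 39% of all genes, together 60.6%. Over the whole course, at 188 dpn against 94 dpc, 40 of 86 were higher and 35 lower, with 36.7% and 48% of all genes, together 84.8%. The share of tested SLC genes called in either direction was 65.8%, 85.4%, 57.3% and 87.2% in these 4 comparisons. The median change of the tested SLC genes was 0.22, -0.11, -0.05 and 0.19 in these 4 comparisons, beside -0.02, -0.07, -0.14 and -0.20 for all genes tested. These splits move with the scaling. With array medians subtracted the counts were 41 higher and 20 lower at 28 dpn against 1 dpn, 28 and 15 at 188 dpn against 28 dpn, and 55 and 22 at 188 dpn against 94 dpc. Quantile normalization gave 53 higher and 26 lower at 188 dpn against 94 dpc.

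The animals of the 2 stages did not overlap in 8 SLC genes at 1 dpn against 94 dpc, in 10 at 28 dpn against 1 dpn, in 3 at 188 dpn against 28 dpn and in 28 at 188 dpn against 94 dpc. The corresponding shares of the tested SLC genes were 10.1%, 12.2%, 4.00% and 32.6%, beside 10.1%, 10.7%, 1.95% and 29.6% of all genes tested.

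**Figure D1:**
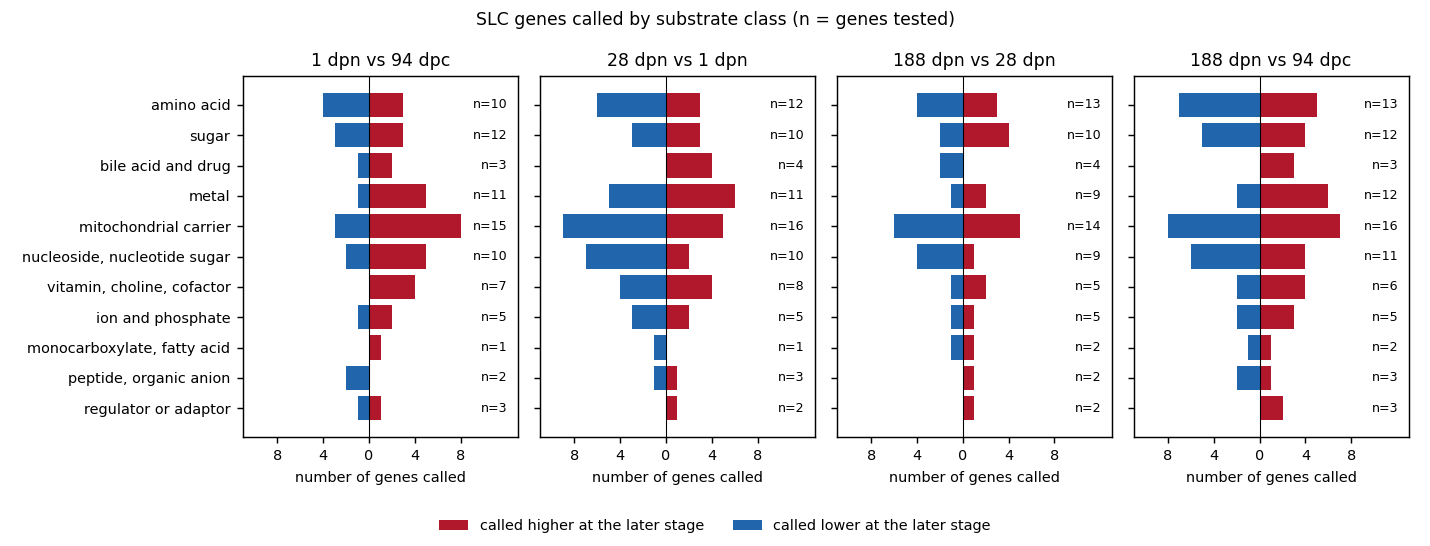
Number of SLC genes called higher (red, to the right) or lower (blue, to the left) at the later stage in each of the 4 comparisons, by substrate class, with the number of genes tested at the right. Of the 9 bile acid and drug carriers 4 were tested and called higher at 28 dpn against 1 dpn, and the mitochondrial carriers had 8 higher and 3 lower of 15 at 1 dpn against 94 dpc.

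The substrate classes, and the gene lists further below, are given by their counts. Differences between classes, or between a class or list and all genes, were not tested. Of all genes tested, 33.9% were called higher and 35.4% lower at 1 dpn against 94 dpc. These shares were 33.2% and 39.1% at 28 dpn against 1 dpn and 21.7% and 39% at 188 dpn against 28 dpn. At 1 dpn against 94 dpc the mitochondrial carriers (8 higher and 3 lower of 15 tested), the nucleoside and nucleotide sugar carriers (5 and 2 of 10), the metal carriers (5 and 1 of 11) and the vitamin, choline and cofactor carriers (4 and 0 of 7) had more rises than falls. The amino acid carriers (3 and 4 of 10) and the sugar carriers (3 and 3 of 12) were divided. At 28 dpn against 1 dpn the mitochondrial (5 higher and 9 lower of 16), amino acid (3 and 6 of 12) and nucleoside and nucleotide sugar carriers (2 and 7 of 10) had more falls, but with array medians subtracted these counts were 6 and 6, 6 and 3, and 4 and 3, so the direction of these classes is not settled. In the bile acid and drug class all 4 tested genes were called higher under all 3 scalings, but 5 of its 9 members were not tested and SLC22A3 passed the filter only through 28 dpn, where it was high.

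**Figure D2:**
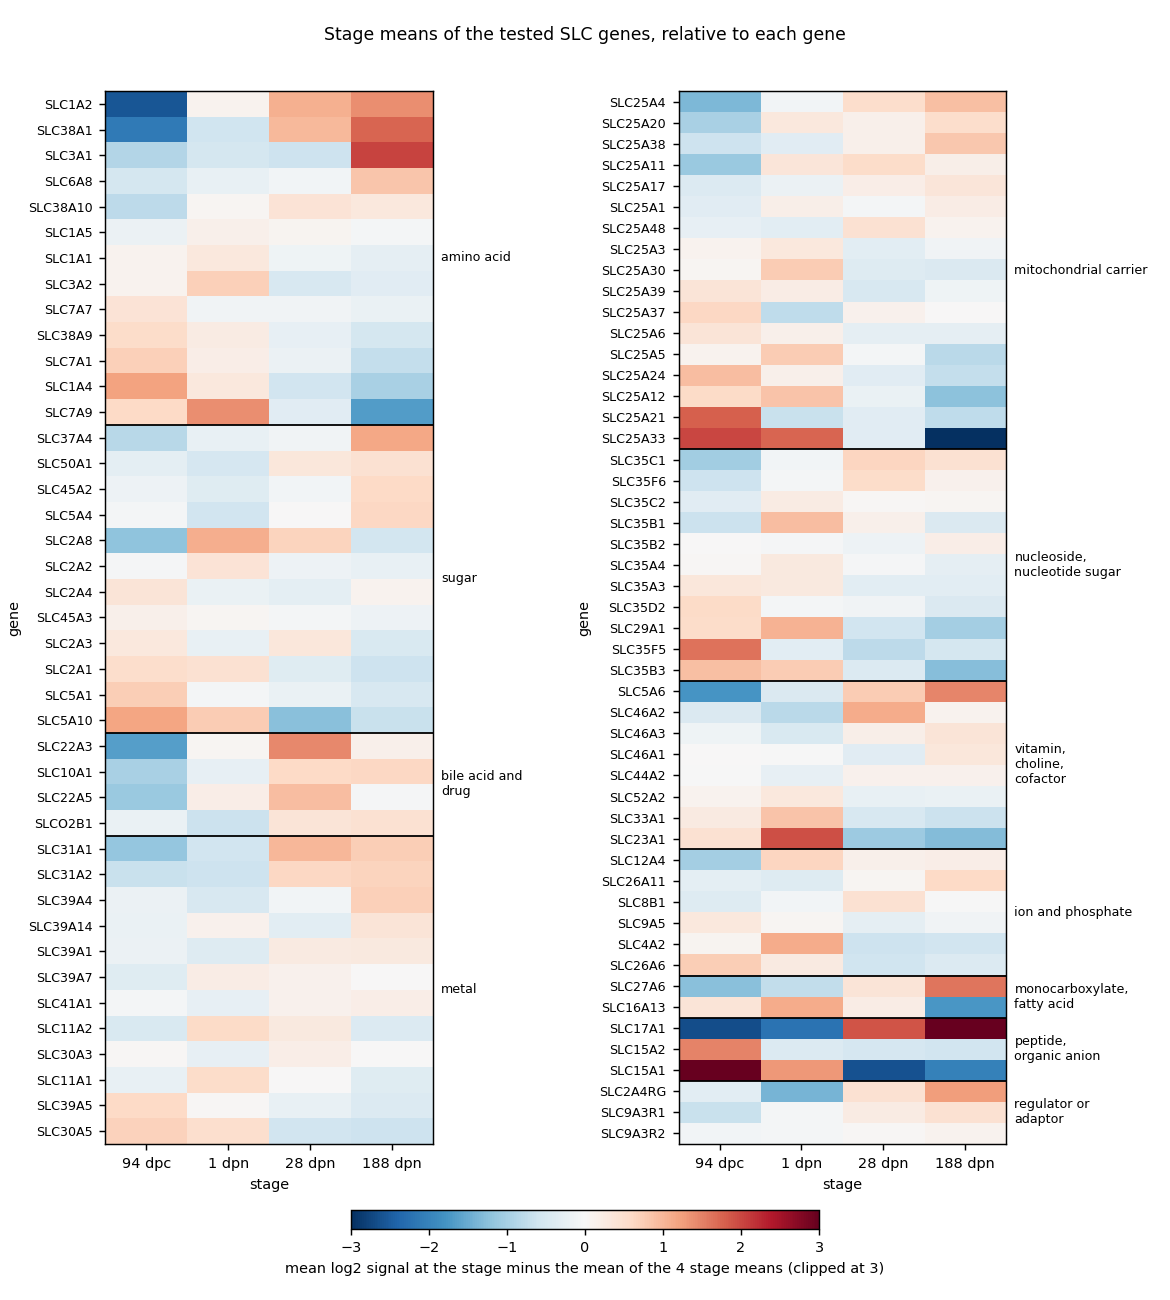
Mean log2 signal of the 91 tested SLC genes at each stage minus the mean of the gene's 4 stage means, with genes in rows grouped by substrate class and ordered by the change at 188 dpn against 94 dpc. The widest ranges of colour are those of SLC17A1, SLC15A1, SLC25A33, SLC38A1 and SLC1A2, whose mean lay below the array median at 1 stage or more.

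In the amino acid class, SLC1A4, SLC7A1 and SLC38A9 were called lower at each step. SLC6A8 and, for the probe-sets taken, SLC38A1 and SLC3A1 were higher at 188 dpn than at 28 dpn. Of the 19 genes of this class 13 were tested, and 5 were higher and 7 lower at 188 dpn against 94 dpc (6 and 4 with array medians subtracted). In the value sentences that follow, the 3 numbers of a stage are the log2 signals of its lowest, median and highest animal. SLC1A4, a sodium-coupled exchanger of alanine, serine and cysteine, had 8.95, 9.53 and 9.88 at 94 dpc, 6.75, 8.67 and 9.51 at 1 dpn, 6.86, 7.77 and 8.32 at 28 dpn and 5.74, 7.39 and 8.06 at 188 dpn. It was lower at each later stage, by 0.88, 0.90 and 0.39, and the highest animal at 188 dpn lay below the lowest at 94 dpc, with a change of -2.18 ± 0.15 (SE; q = 3.25e-16). The step at 188 dpn against 28 dpn was not called under quantile normalization, with array medians subtracted or without the 9 arrays of outlying 3' minus 5' differences.

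SLC7A1, the carrier of arginine and lysine, had 8.66, 9.21 and 9.96 at 94 dpc, 8.16, 8.62 and 9.55 at 1 dpn, 7.55, 8.33 and 8.85 at 28 dpn and 6.99, 7.83 and 8.27 at 188 dpn. Its changes were -0.50, -0.39 and -0.54, and the stages at the ends of the course did not overlap, with a change of -1.43 ± 0.13 (SE; q = 2.82e-13). The middle step, at 28 dpn against 1 dpn, was not called under quantile normalization or with array medians subtracted. SLC38A9, which resides in the lysosome and reports arginine to the growth regulator mTORC1, also fell at each step, by 0.30, 0.50 and 0.27. None of these 3 single steps of SLC38A9 was called with array medians subtracted, whereas its change of -1.07 ± 0.12 (SE; q = 9.56e-11) at 188 dpn against 94 dpc was.

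SLC38A1, a sodium-coupled carrier of glutamine and other neutral amino acids, went the other way. Its signals were 1.01, 5.56 and 6.58 at 94 dpc, 4.62, 6.26 and 8.46 at 1 dpn, 5.89, 7.73 and 10.34 at 28 dpn and 7.03, 8.76 and 10.26 at 188 dpn, so that all pigs at 188 dpn were above all fetuses. It rose by 1.58 ± 0.39 (SE; q = 1.29e-04) at 28 dpn against 1 dpn and by 0.77 at 188 dpn against 28 dpn. The second call was lost with Benjamini-Hochberg adjustment, without the intensity filter, with all 4 stages in 1 fit and for the mean of its probe-sets. The fetal signals lay below the array median, where the size of a fold is poorly defined. The change of 3.87 ± 0.46 (SE; q = 2.75e-10) at 188 dpn against 94 dpc became 1.33 when each signal below its array median was set to that median. SLC6A8, the creatine transporter, had 8.79, 9.72 and 10.37 at 188 dpn, against 8.17, 8.68 and 9.23 at 28 dpn. Its rise was 0.93 ± 0.15 (SE; q = 1.51e-06), and the changes of 0.29 and 0.14 of the earlier steps were not called.

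By the probe-sets taken, the partners of the cystine carrier parted. SLC3A1 (rBAT) is the heavy chain that brings the light chain SLC7A9 to the membrane, where the pair takes up cystine and dibasic amino acids, best known from kidney and small intestine. SLC3A1 had 8.53, 9.17 and 9.60 at 188 dpn, against 5.00, 6.51 and 7.61 at 28 dpn, without overlap, and rose by 2.64 ± 0.22 (SE; q = 2.83e-11), or by 2.07 with the array median as floor. Most weaners did not exceed the array median, and the probe-set passed the filter at this step only through 188 dpn, where it was high. SLC7A9 had 7.88, 8.79 and 9.58 at 94 dpc, 8.65, 9.59 and 10.34 at 1 dpn, 6.49, 8.06 and 8.58 at 28 dpn and 3.83, 6.69 and 7.99 at 188 dpn. It was higher by 0.81 at 1 dpn against 94 dpc, then fell by 1.73 without overlap and by 1.34. Within an animal, the SLC3A1 signal minus the SLC7A9 signal, taken relative to its mean at 94 dpc, had a median of -0.24 at 1 dpn, 1.06 at 28 dpn and 5.06 at 188 dpn. This pair was chosen after its values were seen and the difference was not tested. The direction of SLC3A1 rests on the probe-set taken, and its calls at 188 dpn against 28 dpn and against 94 dpc were not made for the mean of its probe-sets. A second probe-set of the gene averaged 3.50 at 188 dpn and 7.67 at 94 dpc and fell by 4.18. Its mean over all arrays was the lower one, but it was brighter at 94 dpc and 1 dpn, with 7.67 and 7.17 against 6.23 and 6.59. At 1 dpn against 94 dpc only this second probe-set was tested, and it was called lower by 0.51.

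SLC3A2 (4F2hc), the heavy chain of several other exchangers, had its highest signals in the newborn. Its values were 8.01, 8.83 and 9.58 at 94 dpc, 9.29, 9.48 and 9.90 at 1 dpn, 7.93, 8.42 and 8.79 at 28 dpn and 7.89, 8.48 and 9.28 at 188 dpn. The lowest piglet at 1 dpn was above the highest weaner at 28 dpn, and the gene rose by 0.63 ± 0.12 (SE; q = 6.25e-06) at 1 dpn against 94 dpc and fell by 1.20 ± 0.10 (SE; q = 2.34e-12) at 28 dpn against 1 dpn. SLC7A7, one of its light chains, moved otherwise, with a fall of 0.51 at 1 dpn against 94 dpc (q = 1.45e-05) and no call at the later steps. The mean of the 2 probe-sets of SLC7A7 was higher by 0.48 at that step instead. The second of them averaged 6.08 at 1 dpn and 4.61 at 94 dpc, under the array medians, and was not tested. The direction of SLC7A7 therefore rests on the probe-set taken and is not settled. Of the glutamate carriers, SLC1A1 fell by 0.45 at 28 dpn against 1 dpn for the probe-set taken, under the main scaling alone. Another probe-set of SLC1A1 was called lower by 1.17 at this step under that scaling, but the fall was not called for the mean of its probe-sets. The rise of SLC1A2 by 0.95 at the same step started from signals under the array median and became -0.019 when these were set to the median. SLC38A10 of the glutamine carrier family rose by 0.84 and 0.34 at the first 2 steps. The amino acid response genes, listed because starvation for amino acids induces them, had 0 higher and 3 lower of 5 tested at 1 dpn against 94 dpc. Of all genes tested 33.9% were higher and 35.4% lower at this step. The 3 lower genes included the serine synthesis enzyme PSAT1 (-1.45) and the factor ATF3 (-0.83). At 28 dpn against 1 dpn they had 1 higher and 2 lower of 6, with PHGDH, which starts serine synthesis, at -2.22, and at 188 dpn against 28 dpn 2 higher and 1 lower of 6.

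**Figure D3:**
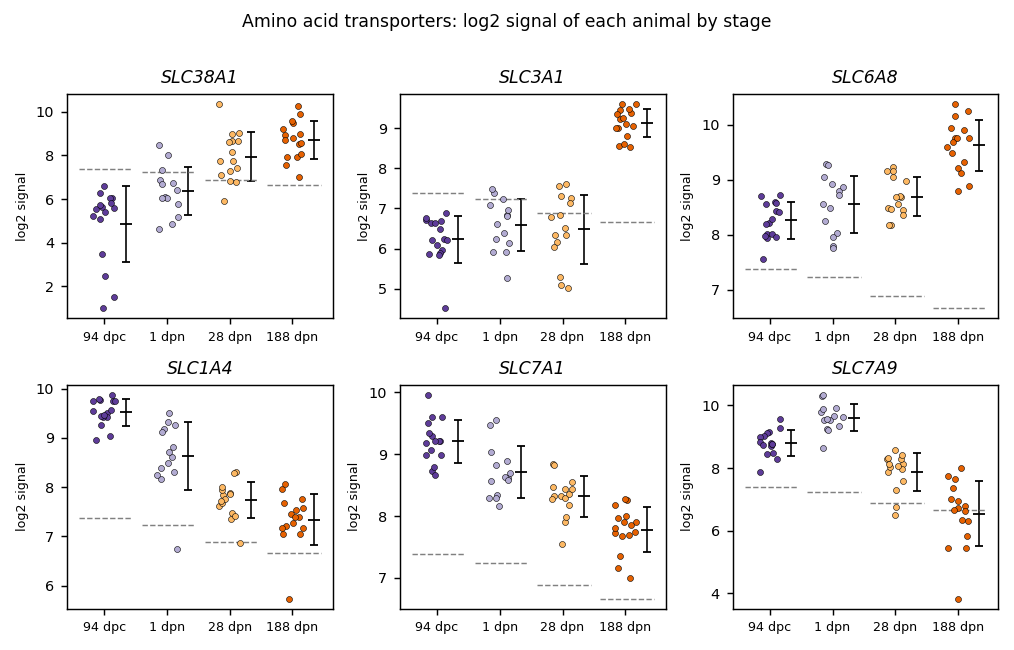
Log2 signal of 6 transporters of the amino acid class in each animal (points) at 4 stages, with mean and SD beside the points and the median of the array medians of the stage as a dashed line. SLC1A4 and SLC7A1 fell at each stage, SLC3A1 was high in all pigs at 188 dpn and SLC38A1 lay at or under the array median in the fetus.

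Among the sugar carriers, SLC37A4 rose between 94 dpc and 1 dpn and again at 188 dpn, SLC2A8 was high in the newborn and SLC2A1 fell after birth. Of 14 genes 12 were tested, with 4 higher and 5 lower at 188 dpn against 94 dpc (8 and 3 with array medians subtracted). SLC37A4 carries glucose 6-phosphate into the ER, where glucose 6-phosphatase releases free glucose. Its signals were 11.22, 11.80 and 12.31 at 94 dpc, 11.63, 12.46 and 12.84 at 1 dpn, 12.05, 12.62 and 12.91 at 28 dpn and 13.06, 13.82 and 14.34 at 188 dpn. It rose by 0.61 ± 0.11 (SE; q = 5.00e-06) at 1 dpn against 94 dpc and, without overlap, by 1.26 ± 0.12 (SE; q = 1.40e-10) at 188 dpn against 28 dpn. Between these steps, at 28 dpn against 1 dpn, this probe-set was not called (0.12), while the second probe-set of SLC37A4 was called higher at all 3 steps, by 0.50, 0.74 and 1.08.

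SLC2A8 (GLUT8), a glucose transporter held on intracellular membranes, was high in the newborn. Its signals were 3.33, 7.81 and 8.71 at 94 dpc, 8.93, 9.62 and 10.14 at 1 dpn, 7.90, 9.26 and 10.16 at 28 dpn and 3.43, 8.30 and 9.05 at 188 dpn. Every piglet at 1 dpn exceeded every fetus, with a change of 2.28 ± 0.35 (SE; q = 2.53e-07), and the gene then fell by 0.42, a step not called with array medians subtracted or with all 4 stages in 1 fit, and by 1.20. At 94 dpc and at 188 dpn 1 animal each lay far under the rest of its stage, at 3.33 and 3.43. SLC2A2 (GLUT2), the main glucose transporter of the hepatocyte membrane, changed little: it had 10.38, 11.17 and 11.63 at 1 dpn, against 9.89, 10.76 and 11.22 at 94 dpc, a rise of 0.45 ± 0.14 (SE; q = 0.00122), and fell by 0.55 at 28 dpn, which was not called with array medians subtracted.

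The ubiquitous SLC2A1 (GLUT1) fell at weaning age, with 7.92, 8.53 and 8.97 at 28 dpn, against 8.68, 9.42 and 9.85 at 1 dpn and a change of -0.82 ± 0.13 (SE; q = 4.39e-07). SLC2A3 (GLUT3), known from neurons and white blood cells, moved down, up and down, by -0.54, 0.56 and -0.80, of which the first step was not called under either other scaling. SLC50A1, an exporter of the SWEET family, rose by 0.82 at 28 dpn against 1 dpn (q = 6.84e-07), and SLC45A2, known from the melanosomes of pigment cells, by 0.67 at 188 dpn against 28 dpn (q = 3.27e-05). SLC5A1, SLC5A4 and SLC5A10 of the sodium-glucose family lay close to the array median in the fetus. SLC5A1 fell by 0.79 at 1 dpn against 94 dpc and SLC5A4 by 0.52, and both calls were lost with signals below the array median set to it. SLC5A4 then rose by 0.61 at 28 dpn against 1 dpn (q = 0.00606). SLC5A10 had 3.71, 5.02 and 7.80 at 188 dpn, against 5.03, 7.44 and 8.32 at 94 dpc, and fell by 1.85 (q = 5.60e-07) with overlapping animals, a change of -0.69 with the array median as floor.

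Of the 9 bile acid and drug carriers, SLC10A1, SLCO2B1, SLC22A5 and SLC22A3 were tested and were higher at 28 dpn against 1 dpn. The 5 others had too weak signals to be tested, and their changes at this step lay between -1.62 (SLC22A2) and 0.51 (SLC22A6). SLC10A1 (NTCP) takes up conjugated bile acids from portal blood together with sodium. Its signals were 11.91, 12.67 and 13.49 at 94 dpc, 12.15, 13.54 and 14.37 at 1 dpn, 13.54, 14.39 and 14.78 at 28 dpn and 13.56, 14.39 and 14.73 at 188 dpn. It rose by 0.73 ± 0.20 (SE; q = 3.94e-04) at 1 dpn against 94 dpc and by 0.86 ± 0.18 (SE; q = 1.68e-05) at 28 dpn against 1 dpn, with overlapping animals at both steps. At 188 dpn against 28 dpn the difference was 0.013 ± 0.13 (SE), and every animal at 188 dpn lay above every fetus.

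SLCO2B1, a carrier of organic anions and drugs, was lowest at 1 dpn. It had 11.65, 12.06 and 12.57 at 94 dpc, 11.11, 11.67 and 12.20 at 1 dpn, 12.37, 12.63 and 13.10 at 28 dpn and 12.17, 12.77 and 13.17 at 188 dpn. The fall of 0.44 (q = 8.27e-05) was followed by a rise of 1.02 ± 0.098 (SE; q = 3.72e-11) without overlap of weaners and newborns. SLC22A5 (OCTN2), which imports carnitine, had 5.38, 6.95 and 7.88 at 94 dpc, 7.37, 8.15 and 9.13 at 1 dpn, 8.43, 8.87 and 9.92 at 28 dpn and 7.26, 8.06 and 8.88 at 188 dpn. It rose by 1.32 (0.82 with the array median as floor) and 0.72 and fell by 0.95 (q = 2.33e-06) at 188 dpn against 28 dpn. SLC22A3 (OCT3), a carrier of organic cations, peaked at 28 dpn too, with changes of 1.39 and -1.28. Only at 28 dpn did most of its animals exceed the array median, and its changes became 0.47 and -0.87 with signals below the array median set to it.

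Of 16 listed ABC transporters, which export bile constituents with ATP, 8 were measured. They had 4 higher and 1 lower of 7 tested at 1 dpn against 94 dpc, 1 higher and 5 lower of 8 at 28 dpn against 1 dpn, and 0 higher and 3 lower of 8 at 188 dpn against 28 dpn. The shares of all genes tested called higher and lower were 33.9% and 35.4%, 33.2% and 39.1%, and 21.7% and 39% at these 3 steps. ABCB11, the bile salt export pump, fell by 0.86 and by 1.39 at the first 2 steps. ABCB1 and ABCC2, which export drugs and conjugates, rose by 1.62 and 1.05 at 1 dpn against 94 dpc and changed by -1.08 and -0.94 at 28 dpn against 1 dpn. Of the bile acid synthesis and control genes, 3 of 5 tested were higher and 1 lower at 28 dpn against 1 dpn, where CYP7A1, the rate-limiting enzyme of bile acid synthesis, rose by 3.49 ± 0.72 (SE; q = 1.56e-05) and CYP27A1 by 1.08. That list had 1 higher and 1 lower of 3 at 1 dpn against 94 dpc and 1 higher and 0 lower of 5 at 188 dpn against 28 dpn.

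The copper carriers rose between birth and weaning age, and the zinc carriers had no common direction. Of 13 metal carriers 12 were tested. SLC31A1 (CTR1), the high-affinity copper importer, had 10.03, 10.32 and 10.84 at 94 dpc, 10.38, 10.91 and 11.46 at 1 dpn, 12.14, 12.46 and 12.92 at 28 dpn and 11.93, 12.30 and 12.50 at 188 dpn. It rose by 0.58 ± 0.11 (SE; q = 3.25e-06) at 1 dpn against 94 dpc and by 1.58 ± 0.11 (SE; q = 5.45e-14) at 28 dpn against 1 dpn, where all weaners were above all newborns. SLC31A2 (CTR2), its intracellular relative, had 8.17, 8.82 and 9.23 at 28 dpn, against 6.88, 7.52 and 8.52 at 1 dpn. It rose by 1.25 ± 0.14 (SE; q = 1.17e-09), with some overlap. Of the copper chaperones, ATOX1, which feeds the copper pumps, rose by 0.54 and 0.51 at the first 2 steps, and CCS, which loads superoxide dismutase, by 0.72, 0.68 and 0.28 at all 3.

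SLC11A2 and SLC39A14, which carry iron among other metals, were called higher in the newborn than in the fetus. SLC11A2 (DMT1), which carries ferrous iron, had 7.73, 8.39 and 9.04 at 94 dpc, 8.73, 9.45 and 10.33 at 1 dpn, 8.95, 9.12 and 9.59 at 28 dpn and 8.06, 8.43 and 8.90 at 188 dpn. It rose by 1.04 ± 0.15 (SE; q = 1.14e-07) at 1 dpn against 94 dpc and fell by 0.70 ± 0.093 (SE; q = 1.07e-07) at 188 dpn against 28 dpn, without overlap. Neither of these calls was made for the mean of the gene's probe-sets. A second probe-set was called higher by 1.14 at 1 dpn against 94 dpc and was not called at 188 dpn against 28 dpn (-0.22). SLC39A14 (ZIP14), which brings iron, manganese and zinc into hepatocytes, changed by 0.34, -0.45 and 0.70, the first step not being called with Benjamini-Hochberg adjustment and the second not with array medians subtracted. SLC11A1 (NRAMP1), known from the phagosomes of macrophages, rose by 0.78 (q = 7.20e-06) at 1 dpn against 94 dpc and changed by -0.54 at 28 dpn against 1 dpn, a fall called under the main scaling but under neither of the others. The 5 measured of 8 macrophage markers, none of which was below the array median on all arrays of a stage, had summed signals of 6645 to 16925 at 94 dpc, 13551 to 28568 at 1 dpn, 32196 to 48950 at 28 dpn and 21087 to 35368 at 188 dpn. Their part in the SLC11A1 values was not tested.

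Among the zinc carriers, SLC39A5 (ZIP5) fell with age. It had 10.67, 11.21 and 11.72 at 188 dpn, against 11.93, 12.13 and 12.78 at 94 dpc, without overlap and with a change of -0.99 ± 0.10 (SE; q = 1.56e-11). SLC39A4 (ZIP4), known for zinc uptake in the intestine, rose by 0.40 and by 0.80 at the last 2 steps, the first of these not called without the arrays of outlying 3' minus 5' differences, and SLC39A7 (ZIP7), which releases zinc from the ER, by 0.58 at 1 dpn against 94 dpc (q = 9.85e-08). SLC39A1 (ZIP1) rose by 0.65 at 28 dpn against 1 dpn, a call not made for the mean of its probe-sets. SLC30A3 and the magnesium carrier SLC41A1 had 0.43 and 0.38 at that step, and both calls were lost for the mean of the probe-sets and with the array median as floor. SLC30A5, which loads zinc into the secretory pathway, fell by 1.07 at that step, with 6.98, 7.61 and 8.46 at 28 dpn and 7.86, 8.64 and 9.40 at 1 dpn, a call not made for the mean of its probe-sets. Among the metal storage and control genes, 5 of 9 tested were higher and 2 lower at 1 dpn against 94 dpc, 4 of 9 higher and 3 lower at 28 dpn against 1 dpn, and 5 of 8 higher and 0 lower at 188 dpn against 28 dpn. All genes tested had 33.9% higher and 35.4% lower, 33.2% and 39.1%, and 21.7% and 39% at these 3 steps. HAMP, the hormone hepcidin that blocks iron export, changed by -4.88 at 28 dpn and 5.97 at 188 dpn against the stage before, TFRC, the transferrin receptor, by -3.76 at 28 dpn against 1 dpn, and the zinc and copper buffers MT1A and MT3 by -0.91 and -1.69 at 1 dpn against 94 dpc.

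**Figure D4:**
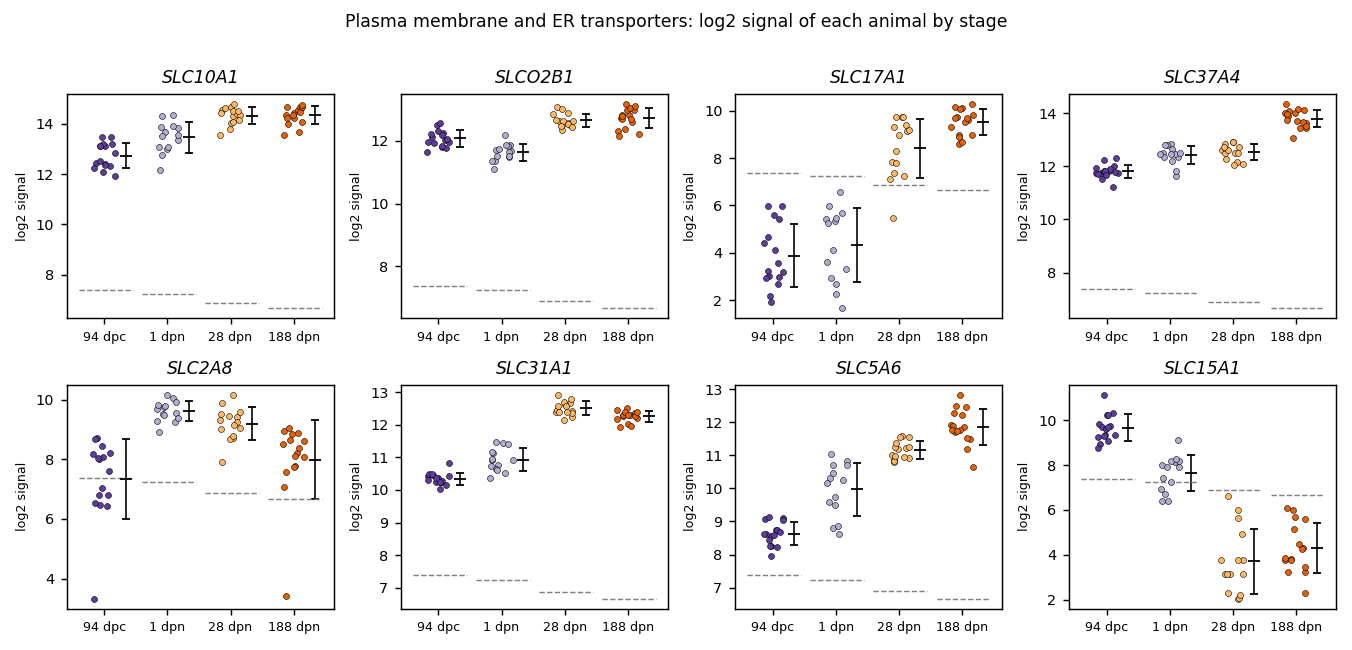
Log2 signal of 8 transporters of the plasma membrane, the ER and other intracellular membranes in each animal (points) at 4 stages. Mean and SD stand beside the points, and the median of the array medians of the stage is a dashed line. SLC31A1 separated 28 dpn from 1 dpn, SLC37A4 separated 188 dpn from 28 dpn, and SLC17A1 and SLC15A1 crossed the array median in opposite directions.

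Among the mitochondrial carriers, the adenine nucleotide translocases parted, SLC25A4 rising at each step and SLC25A5 falling after birth. Of 21 SLC25 genes 17 were tested, with 7 higher and 8 lower of 16 at 188 dpn against 94 dpc (8 and 5 of 17 with array medians subtracted). SLC25A4, SLC25A5 and SLC25A6 encode the translocases ANT1, ANT2 and ANT3, which exchange mitochondrial ATP for cytosolic ADP. ANT1 is known from heart and muscle, and ANT2 from dividing cells. SLC25A4 had 11.01, 11.38 and 11.86 at 94 dpc, 12.31, 12.64 and 13.38 at 1 dpn, 12.91, 13.29 and 13.54 at 28 dpn and 13.32, 13.64 and 13.93 at 188 dpn. It rose at every step, by 1.27 ± 0.10 (SE; q = 6.02e-13) without overlap at 1 dpn, by 0.60 at 28 dpn and by 0.37 at 188 dpn, the last of these not called under quantile normalization.

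SLC25A5 had 12.23, 12.69 and 12.95 at 94 dpc, 12.31, 13.42 and 13.69 at 1 dpn, 12.20, 12.54 and 12.80 at 28 dpn and 11.47, 11.72 and 12.33 at 188 dpn. It rose by 0.65 at 1 dpn against 94 dpc and then fell by 0.83 and 0.74, so that it was lower by 0.91 ± 0.088 (SE; q = 2.52e-12) at 188 dpn than at 94 dpc. SLC25A6 fell by 0.44 at 28 dpn against 1 dpn and was too even to be tested at the other adjacent steps. Its fall was not called with array medians subtracted. Within an animal, where array scaling cancels, the SLC25A4 signal minus the SLC25A5 signal, relative to its mean at 94 dpc, ran from -0.50 to 0.62 at 94 dpc, from -0.042 to 1.59 at 1 dpn, from 1.60 to 2.47 at 28 dpn and from 2.59 to 3.55 at 188 dpn. For SLC25A4 minus SLC25A6 the medians were 1.54, 2.62 and 2.99 at 1 dpn, 28 dpn and 188 dpn. Both pairs were taken up after their values were seen and were not tested.

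SLC25A33, which imports pyrimidine nucleotides into mitochondria and was first described as a gene induced by insulin and insulin-like growth factor, had the deepest fall of the tested SLC genes at 188 dpn against 94 dpc. Its signals were 11.28, 11.96 and 12.55 at 94 dpc, 11.08, 11.64 and 12.77 at 1 dpn, 8.74, 9.58 and 10.72 at 28 dpn and 4.61, 6.59 and 8.85 at 188 dpn. At 1 dpn against 94 dpc it was not called (-0.27 ± 0.16, SE), whereas the other, weaker probe-set of SLC25A33 was called higher by 1.57. It then fell by 2.07 ± 0.18 (SE; q = 4.00e-12) without overlap, where the other probe-set fell by 2.95, and by 3.10 ± 0.32 (SE; q = 1.44e-09). At 188 dpn many animals were at or under the array median, and with such signals set to the median the last step was -2.54.

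SLC25A20 and SLC25A11 rose between 94 dpc and 1 dpn. SLC25A20 imports acylcarnitines for fatty acid oxidation. It had 10.61, 11.15 and 12.06 at 1 dpn, against 9.42, 9.88 and 10.27 at 94 dpc, without overlap, and rose by 1.27 ± 0.11 (SE; q = 4.73e-12), with a further 0.37 at 188 dpn against 28 dpn. SLC25A11, the oxoglutarate carrier of the malate-aspartate shuttle, had 8.07, 9.28 and 9.80 at 1 dpn, against 6.95, 7.51 and 8.44 at 94 dpc, and rose by 1.47 ± 0.19 (SE; q = 1.89e-08). SLC25A12, the aspartate-glutamate carrier of the same shuttle, followed another course, with a rise of 0.29, not called with all 4 stages in 1 fit, and falls of 1.05 and 1.04. SLC25A1, which exports citrate for fatty acid synthesis, rose by 0.52 at 1 dpn and by 0.30 at 188 dpn against the stage before, the second not called under quantile normalization or without the intensity filter. SLC25A21, which carries oxodicarboxylates of lysine and tryptophan breakdown, was lower at 1 dpn than at 94 dpc. It had 3.64, 6.60 and 8.27 at 1 dpn, against 8.29, 8.84 and 9.88 at 94 dpc, without overlap, a change of -2.46 ± 0.26 (SE; q = 3.88e-10) that became -1.57 with the array median as floor.

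Of 22 listed enzymes and channels that work with these carriers 19 were measured. At 1 dpn against 94 dpc 8 of the 12 tested were higher and 0 lower, beside 33.9% and 35.4% of all genes tested. CPT1A, which makes acylcarnitines, rose by 2.68 ± 0.18 (SE; q = 7.93e-15), carnitine acetyltransferase CRAT by 1.82, argininosuccinate synthase ASS1 by 1.62, pyruvate carboxylase PC by 1.53 and the outer membrane channel VDAC2 by 1.27. At 28 dpn against 1 dpn this list had 2 higher and 3 lower of 12, and at 188 dpn against 28 dpn 3 higher and 3 lower of 10.

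Carriers of mitochondrial iron and heme synthesis did not move together. SLC25A37 (mitoferrin-1), which brings iron into mitochondria and is known from erythroid cells, had 8.82, 9.98 and 10.96 at 94 dpc, 7.51, 8.61 and 8.99 at 1 dpn, 8.81, 9.50 and 9.87 at 28 dpn and 8.60, 9.36 and 9.73 at 188 dpn. It fell by 1.40 ± 0.22 (SE; q = 4.37e-07) and rose by 0.91 ± 0.14 (SE; q = 1.98e-07). The 6 measured of 9 erythroid markers had 0 higher and 6 lower of 6 tested at 1 dpn against 94 dpc. At 28 dpn against 1 dpn they had 3 higher and 0 lower of 5 tested. Of all genes tested 33.9% were higher and 35.4% lower at the first of these steps, and 33.2% and 39.1% at the second. The summed signals of the 6 markers were 2909 to 27089 at 94 dpc, 1208 to 4170 at 1 dpn, 1874 to 6755 at 28 dpn and 2954 to 8690 at 188 dpn. None of the 6 was below the array median on all arrays of a stage, and their part in the SLC25A37 values was not tested. SLC25A38, which supplies glycine for heme, rose instead at each step, by 0.30, 0.47 and 0.67, and all pigs at 188 dpn were above all fetuses. Its second step was not called for the mean of its probe-sets. SLC25A39, which imports glutathione, fell by 0.71 at 28 dpn and rose by 0.34 at 188 dpn against the stage before.

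Of the remaining mitochondrial carriers, SLC25A3, the phosphate carrier, fell by 0.62 (q = 1.60e-07) and SLC25A30 by 1.14 without overlap at 28 dpn against 1 dpn. SLC25A48, which carries choline, rose by 0.80 and SLC25A17, a carrier of cofactors in the peroxisome, by 0.38 at the same step. SLC25A24, which exchanges ATP-magnesium for phosphate, fell at all 3 steps, by 0.77, 0.50 and 0.37. The last 2 of these steps were not called under either other scaling, and none of the 3 for the mean of its probe-sets.

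**Figure D5:**
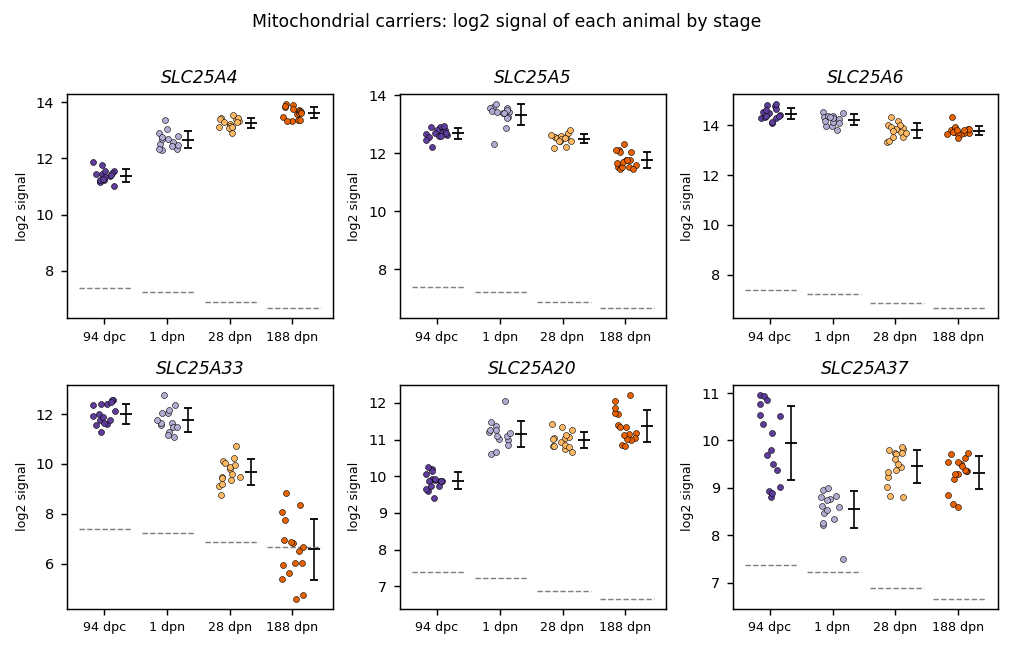
Log2 signal of 6 mitochondrial carriers in each animal (points) at 4 stages, with mean and SD beside the points and the median of the array medians of the stage as a dashed line. SLC25A4 rose at each stage while SLC25A5 peaked at 1 dpn, SLC25A33 fell to the array median at 188 dpn and SLC25A37 was widely spread at 94 dpc.

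Of the vitamin carriers, SLC5A6 was the only SLC gene called higher at all 3 adjacent steps under every one of the 13 alternatives, and SLC23A1 fell after birth. SLC5A6 (SMVT) imports biotin, pantothenate and lipoate. Its signals were 7.94, 8.62 and 9.13 at 94 dpc, 8.62, 10.21 and 11.04 at 1 dpn, 10.81, 11.19 and 11.57 at 28 dpn and 10.64, 11.81 and 12.84 at 188 dpn. It rose by 1.35 ± 0.21, 1.18 ± 0.21 and 0.71 ± 0.15 (SE), and by 3.24 ± 0.16 (SE; q = 5.94e-20) over the whole course without overlap. SLC23A1 (SVCT1), which imports vitamin C, had 4.26, 7.15 and 7.77 at 94 dpc, 7.37, 8.54 and 9.19 at 1 dpn, 2.34, 5.48 and 7.23 at 28 dpn and 3.22, 5.13 and 6.80 at 188 dpn. It rose by 1.46 ± 0.31 (SE; q = 2.26e-05) at 1 dpn and fell by 3.02 ± 0.41 (SE; q = 2.57e-08) at 28 dpn, where all weaners were under all newborns. With signals below the array median set to it these changes were 0.84 and -1.40, and neither call was made for the mean of its probe-sets.

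SLC33A1, which carries acetyl-CoA into the ER, rose by 0.61 at 1 dpn and fell by 1.35 (q = 1.28e-10) at 28 dpn. SLC46A2 had 8.18, 8.80 and 9.16 at 28 dpn, against 5.08, 6.98 and 7.55 at 1 dpn, without overlap. It rose by 1.91 ± 0.18 (SE; q = 1.66e-11) at 28 dpn and fell by 1.00 at 188 dpn. Most newborns did not exceed the array median, and the gene passed the filter for this rise only through 28 dpn, where it was high. The size of the rise is therefore poorly defined, although it was still called with the array median as floor. SLC46A1, the proton-coupled folate transporter, rose by 0.69 at 188 dpn against 28 dpn (q = 5.35e-07), and SLC52A2, a riboflavin transporter, fell by 0.54 at 28 dpn against 1 dpn, which was not called with array medians subtracted. For the choline transporter-like gene SLC44A2, the probe-set taken rose by 0.38 at 28 dpn against 1 dpn while another of the gene fell by 0.70 and the last one fell by 1.79, so it has no settled direction. The same holds for SLC26A11 of the anion exchanger family, with 0.46 for the probe-set taken and a fall of 1.01 for the other.

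Among the nucleoside and nucleotide sugar carriers, SLC29A1, SLC35B1 and SLC35B3 fell after birth. SLC29A1 (ENT1), which lets nucleosides equilibrate across the cell membrane, had 8.61, 9.18 and 9.71 at 94 dpc, 9.13, 9.68 and 10.08 at 1 dpn, 7.67, 7.98 and 8.54 at 28 dpn and 6.49, 7.65 and 8.18 at 188 dpn. It fell by 1.61 ± 0.10 (SE; q = 7.85e-15) at 28 dpn against 1 dpn, without overlap. SLC35B1, which brings ATP into the ER, had 10.49, 11.56 and 12.42 at 1 dpn, against 9.40, 9.87 and 10.24 at 94 dpc. It rose by 1.56 ± 0.16 (SE; q = 1.05e-10) without overlap, and fell by 0.77 and 0.58 at the later steps.

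SLC35F5 was highest in the fetus, with 9.11, 10.35 and 10.99 at 1 dpn, against 10.25, 12.28 and 13.01 at 94 dpc and a change of -1.96 ± 0.21 (SE; q = 4.18e-10). SLC35B3, a Golgi carrier of the sulfate donor PAPS, fell by 1.17 at 28 dpn and 0.87 at 188 dpn against the stage before, the second not called without the arrays of outlying 3' minus 5' differences, and its relative SLC35B2 rose by 0.34 at 188 dpn against 28 dpn. SLC35D2, a carrier of UDP-sugars, was lower by 0.62 at 1 dpn and by 1.00 without overlap at 188 dpn, each against 94 dpc. SLC35C1, the GDP-fucose carrier, rose by 0.94 and 0.74 and SLC35F6 by 0.57 and 0.60 at the first 2 steps.

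Both SLC17A1 and SLC15A1 crossed the array median, in opposite directions. SLC17A1 (NPT1), a carrier of urate and other organic anions known from liver and kidney, had 1.94, 3.41 and 5.99 at 94 dpc, 1.67, 4.71 and 6.59 at 1 dpn, 5.48, 8.98 and 9.73 at 28 dpn and 8.59, 9.66 and 10.27 at 188 dpn. No fetus and no newborn reached the array median, whereas all 16 pigs at 188 dpn exceeded it. It rose by 4.10 ± 0.49 (SE; q = 3.15e-09) at 28 dpn against 1 dpn and by 1.09 ± 0.32 (SE; q = 0.00172) at 188 dpn against 28 dpn. With signals under the array median set to it these rises were 1.28 and 0.99.

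SLC15A1 (PEPT1), the proton-coupled carrier of di- and tripeptides known from the intestine, had 8.77, 9.65 and 11.14 at 94 dpc, 6.40, 7.93 and 9.10 at 1 dpn, 2.05, 3.15 and 6.61 at 28 dpn and 2.31, 4.05 and 6.10 at 188 dpn. All fetuses were above the array median and no animal was at 28 dpn or 188 dpn. It fell by 2.02 ± 0.24 (SE; q = 3.71e-09) and by 3.93 ± 0.42 (SE; q = 2.84e-10), the second being -0.93 with the array median as floor. SLC15A2 (PEPT2), known from kidney, also fell between the first 2 stages, with 8.15, 9.76 and 10.37 at 1 dpn, against 11.20, 11.52 and 11.95 at 94 dpc, no overlap and a change of -1.90 ± 0.16 (SE; q = 1.19e-12). At 28 dpn against 1 dpn the probe-set taken was not called (-0.082), while the other 2 probe-sets of SLC15A2 were called lower, at -0.78 and -0.32. Of 2 intestinal markers VIL1 also fell at each step, by 0.52, 0.78 and 1.00, and FABP2 was under the array median on every array. The 2 together had summed signals of 536 to 1840 at 94 dpc, 380 to 1444 at 1 dpn, 221 to 608 at 28 dpn and 147 to 297 at 188 dpn, and their part in the SLC15A1 values was not tested.

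Among the carriers of ions, monocarboxylates and fatty acids, SLC12A4 (KCC1), a potassium-chloride cotransporter, had 9.53, 10.12 and 10.87 at 1 dpn, against 7.93, 8.42 and 8.79 at 94 dpc, without overlap, and rose by 1.67 ± 0.11 (SE; q = 1.32e-14). SLC4A2 (AE2), which exchanges chloride for bicarbonate in cholangiocytes and other cells, rose by 1.03 at 1 dpn and fell by 1.73 at 28 dpn, with most animals under the array median outside 1 dpn and changes of 0.37 and -0.85 with that median as floor. The 4 measured of 5 cholangiocyte markers had summed signals of 483 to 1107 at 94 dpc, 359 to 1810 at 1 dpn, 178 to 726 at 28 dpn and 173 to 533 at 188 dpn; SOX9 and CFTR were under the array median throughout. Their part in the SLC4A2 values was not tested. SLC26A6, an anion exchanger, fell by 0.86 at 28 dpn against 1 dpn, and SLC8B1, the sodium-calcium exchanger of mitochondria, rose by 0.53. SLC16A13, of the monocarboxylate family, had 9.03, 9.75 and 10.35 at 94 dpc, 9.63, 10.48 and 11.32 at 1 dpn, 8.58, 9.58 and 10.48 at 28 dpn and 6.51, 7.72 and 8.79 at 188 dpn, with a fall of 1.97 ± 0.19 (SE; q = 3.39e-10) at the last step. SLC27A6, a fatty acid transport protein, had 7.06, 7.96 and 9.00 at 188 dpn, against 4.95, 6.88 and 8.33 at 28 dpn, a rise of 1.22 that was not called for the mean of its probe-sets.

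Genes named after a carrier without being one were kept by the rule. SLC2A4RG, a transcription regulator of the insulin-responsive glucose transporter gene SLC2A4, had 9.62, 10.14 and 10.59 at 94 dpc, 8.21, 9.13 and 9.57 at 1 dpn, 10.28, 10.79 and 11.31 at 28 dpn and 11.10, 11.64 and 12.20 at 188 dpn. It fell by 1.09 ± 0.14 (SE; q = 1.07e-08) at 1 dpn against 94 dpc and rose by 1.86 ± 0.16 (SE; q = 2.96e-12) at 28 dpn against 1 dpn, both without overlap, and by 0.79 at 188 dpn. SLC2A4 itself was near the array median and rose by 0.41 at 188 dpn against 28 dpn, a call lost under 6 of the 13 alternatives. SLC9A3R1 (NHERF1), an adaptor that anchors transporters to the cytoskeleton, rose by 0.61 at 1 dpn against 94 dpc and by 1.12 without overlap at 188 dpn against 94 dpc.

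SLC1A4, SLC7A1, SLC38A9 and SLC25A24 were called lower, and SLC25A4, SLC25A38 and SLC5A6 higher, in all 3 adjacent comparisons. These 7 are 10.8% of the 65 SLC genes tested in all 3, and the corresponding share of all genes was 10.2%. Changes of at least 1 in opposite directions at consecutive steps were called for SLC23A1 and SLC4A2, which were high in the newborn, SLC2A4RG, which was low there, and SLC22A3, which was high at 28 dpn. At both steps SLC23A1, SLC4A2 and SLC22A3 passed the filter only through the stage where they were high, so the filter favoured these turns. With the array median as floor, none of these 3 changed by at least 1 both ways. The share of all genes with such a turn was not determined. The called members not yet described had small or scaling-dependent changes. SLC46A3 rose by 0.64 at 28 dpn against 1 dpn (q = 3.65e-04) under all alternatives. SLC35C2 rose by 0.57 at 1 dpn against 94 dpc, and SLC35A3, a carrier of UDP-N-acetylglucosamine, fell by 0.62 at 28 dpn against 1 dpn, which was not called with array medians subtracted. SLC35A4, SLC45A3 and SLC9A5 were called lower at 188 dpn against 94 dpc by 0.30, 0.28 and 0.41, and were higher by 0.35, 0.37 and 0.24 with array medians subtracted, so these 3 have no settled direction.

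Of the 41 genes with several probe-sets, 19 had 2 or more called at 28 dpn against 1 dpn, and 2 of these (SLC26A11 and SLC44A2) had calls in opposite directions. At 188 dpn against 94 dpc 19 had 2 or more called and 4 were opposed (SLC26A11, SLC35C2, SLC3A1 and SLC46A1). No gene was opposed at 1 dpn against 94 dpc or at 188 dpn against 28 dpn, where 9 and 5 genes had 2 or more probe-sets called.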

How the data were processed

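Liver RNA of 61 LP animals was measured on Affymetrix GeneChip Porcine Genome Arrays, and stages were taken from the sample labels. The deposited values are signal intensity per probe-set, produced by the authors with GCOS 1.1.1 and scaled to a common trimmed mean, recomputed here as 500.1 to 500.2 with 2% trimmed at each end. The GC-RMA values and detection calls that the study analysed were not used here. Probe-sets were named through the platform annotation: 10069 carried 1 symbol, 198 several and 13732 none. Intensities were taken to log2. Probe-sets that exceeded the array median in no fewer than 50% of the animals of 1 stage or the other, with an SD over 0.25, were tested (12227, 12114, 10959 and 12921 probe-sets at 1 dpn against 94 dpc, 28 dpn against 1 dpn, 188 dpn against 28 dpn and 188 dpn against 94 dpc). The test was limma 3.58.1 (lmFit and eBayes, R 4.3.3, two-sided) with stage as the only term. Sex, mother and weight, which the study modelled, are not in the labels used here. Calls required both P and Storey's q over all probe-sets tested to be no higher than 0.05, and a change is the later minus the earlier stage.

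The 13 alternatives comprised quantile normalization, subtraction of array medians, the array median as floor, a pseudocount of 16, no intensity filter or one at the array's 25th percentile, no SD filter, Benjamini-Hochberg adjustment, 1 fit of all stages, array weights, averaging of the probe-sets of each gene, and the removal of 9 arrays with outlying 3' minus 5' differences or of the least correlated array of each stage. In data simulated with independent normal values, 100 probe-sets were changed by 1 and 100 by 0.5 in each comparison. Of the changes of 1, 94%, 94%, 99% and 93% were called in the right direction in the 4 comparisons in the order above, and 57%, 61%, 43% and 52% of changes of 0.5. False calls made up 3.82%, 9.36%, 5.33% and 6.45% of the simulated calls, above the q threshold in all but the first comparison. Far fewer probe-sets changed there than were called in the real data, and no litters were simulated. These shares therefore do not give the power or the share of false calls among the real calls. Mean correlations of arrays within their stage lay between 0.905 and 0.960. Genes were named if among the 8 called members with the largest rise or fall of a comparison, the leading called members of a class, carriers known from liver, members with one direction or a sharp turn, or, in other lists, up to 5 called genes. Members of small change outside this rule are named to account for the whole set. The SLC genes, their classes and the lists (amino acid response, ABC transporters, bile acid synthesis, metal storage, mitochondrial partners, and markers of hepatocytes, erythroid cells, macrophages, cholangiocytes and intestine) were chosen with earlier results of these data known, and class membership was edited after the annotated symbols had been seen.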

Additional observations from a re-analysis of the deposited data

How the results depend on the processing

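Of the 52, 70, 43 and 75 SLC calls at 1 dpn against 94 dpc, 28 dpn against 1 dpn, 188 dpn against 28 dpn and 188 dpn against 94 dpc, 40, 41, 26 and 52 were kept under all 13 alternatives. Subtracting array medians lost or reversed 42 calls over the 4 comparisons, averaging the probe-sets of each gene 31, quantile normalization 27 and leaving out arrays with outlying 3' minus 5' differences 15, and the other alternatives at most 12 each. With array medians subtracted the number of SLC genes called lower was 20 in place of 39 at 28 dpn against 1 dpn and 22 in place of 35 at 188 dpn against 94 dpc. Calls that turned round did so as follows, and beyond the construction of each alternative the cause was not tested. At 1 dpn against 94 dpc the mean of probe-sets gave 0.026 for SLC25A24 and 0.48 for SLC7A7. At 28 dpn against 1 dpn, subtracted medians gave 0.049 for SLC11A2, 0.10 for SLC25A1, 0.021 for SLC35A4, 0.14 for SLC35C2, 0.10 for SLC39A5 and 0.020 for SLC46A1, the array median as floor -0.019 for SLC1A2 and -0.014 for SLC41A1, and the mean of probe-sets -0.28 for SLC26A11, -0.043 for SLC30A3, -0.26 for SLC41A1 and -0.70 for SLC44A2. At 188 dpn against 94 dpc, quantile normalization gave 0.15 for SLC1A1, 0.27 for SLC35A4, 0.32 for SLC45A3, 0.27 for SLC52A2 and 0.23 for SLC9A5. Subtracted medians there gave 0.28 for SLC1A1, 0.025 for SLC25A37, 0.12 for SLC25A39, 0.35 for SLC35A4, 0.21 for SLC3A2, 0.37 for SLC45A3, 0.35 for SLC52A2, 0.055 for SLC7A7 and 0.24 for SLC9A5. The floor gave -0.12 for SLC1A2, and the mean of probe-sets -0.64 for SLC3A1, -0.14 for SLC46A1 and 0.19 for SLC7A7.

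No paired analysis was possible because no replicate number occurs in more than 1 stage and the labels do not give the litters, whose members were spread over the postnatal stages. Siblings within a stage could not be modelled either. In 38 of the 240 calls, on 21 genes, fewer than 50% of the animals of 1 of the stages exceeded the array median, and weak signals limit these folds. In each of these calls the gene passed the filter only through the other stage, which favoured a difference. The number of arrays limits the precision of every value.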
